A study of Mus musculus with 6 samples.

Results

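Expression of 10 monocyte and macrophage effector genes was followed in sorted Lin-cKit+ FL cells of wt and hnRNP L deficient embryos. The members were chosen by symbol and matched to their Ensembl identifier in the gene counts, which listed 38293 genes, and all 10 were found. They were read as 4 progenitor-type genes, *Mpeg1*, *Ccl9*, *Pld4* and *Clec12a*, which are already transcribed in granulocyte-monocyte and monocyte precursors, and 6 macrophage-type genes, *C1qa*, *C1qb*, *Mrc1*, *Adgre1*, *Cx3cr1* and *Cd68*, which were read as genes of mature tissue macrophages. *Cx3cr1* is also carried by monocytes, so this grouping is not sharp. RNA came from 3 wt embryos and 3 embryos labelled hnRNPL Knock-Out, all of strain C57BL/6 at E14.5, and each library is a single embryo. According to the methods of the study, the latter were VavCre+hnRNP L fl/fl, so that Cre from the Vav promoter, which is active in hematopoietic cells, deletes the floxed *Hnrnpl* alleles. The labels name the tissue both as fetal liver cells and as whole embryo, whereas the methods describe the sort of Lin-cKit+ FL cells. The wt samples are given in the paper as L fl/fl, so that they carry the floxed alleles as well. Per the methods, the lineage antibodies used for FL included Gr1 but not CD11b, an integrin chain carried by monocytes and macrophages.

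Monocytes arise from granulocyte-monocyte progenitors under the transcription factors PU.1 and IRF8 and the receptor for M-CSF. In the fetal liver, macrophages derived from the yolk sac and from fetal monocytes sit at the centre of erythroblastic islands, where they clear the nuclei that maturing erythroblasts expel. A mature macrophage is recognised by its scavenger and complement genes, which serve the uptake of dying cells, whereas its precursors carry chemokines and receptors of blood cells in transit.

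Reads counted on genes were between 55952160 and 76157226 per library, and 3 reads corresponded to between 0.0402 and 0.054 CPM, the reads of a gene scaled to the TMM-normalized library size. Where 3 values follow each other, they belong to replicates 1, 2 and 3 in this order. *Hnrnpl* itself lay between 528 and 552 CPM in the wt libraries and between 242 and 288 CPM in hnRNP L deficient embryos. The progenitor marker *Kit*, which the sort selects, was present at 423 to 656 CPM in the wt and 325 to 368 CPM in hnRNP L deficient embryos. Wt replicate 2 stood apart in myeloid genes. Its summed level of 14 granulocyte precursor markers was 9254 CPM, against 574 CPM in the lowest wt library and between 246 and 1200 CPM in hnRNP L deficient embryos. For the members, values are therefore given for each library, and fold changes with and without wt replicate 2. In a sorted bulk sample, fewer cells of a type and less RNA per cell cannot be told apart.

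Upstream sequences are shown for 4 members, to set the promoters of *Ccl9* and *Pld4*, the progenitor-type members with the largest log2 fold changes, beside those of the macrophage-type members *Mrc1* and *C1qb*. The sequences are from RefSeq (GRCm38.p6), whose promoter table held 8 of the 10 members, *C1qa* and *Adgre1* excepted. Each runs 5′ to 3′ on the strand of its gene over the 250 bases before the RefSeq start site, which can differ from the gene limits given below, and capitals mark GAGGAA or GGAAGT on either strand, the overlapping parts of GAGGAAGT, a sequence bound by PU.1. These letters are spelled TTCCTC and ACTTCC on the opposite strand.
*Ccl9*, chr11:83578637-83578886, minus strand: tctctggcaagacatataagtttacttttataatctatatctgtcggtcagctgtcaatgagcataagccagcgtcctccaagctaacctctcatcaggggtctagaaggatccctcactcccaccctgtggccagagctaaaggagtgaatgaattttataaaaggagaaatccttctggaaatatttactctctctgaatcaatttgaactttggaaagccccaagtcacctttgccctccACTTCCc
*Pld4*, chr12:112760405-112760654, plus strand: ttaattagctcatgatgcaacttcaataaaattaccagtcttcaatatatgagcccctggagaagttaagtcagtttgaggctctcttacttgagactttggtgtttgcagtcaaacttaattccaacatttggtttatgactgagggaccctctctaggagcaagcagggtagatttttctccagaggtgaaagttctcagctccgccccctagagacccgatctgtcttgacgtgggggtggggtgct
*Mrc1*, chr2:14229164-14229413, plus strand: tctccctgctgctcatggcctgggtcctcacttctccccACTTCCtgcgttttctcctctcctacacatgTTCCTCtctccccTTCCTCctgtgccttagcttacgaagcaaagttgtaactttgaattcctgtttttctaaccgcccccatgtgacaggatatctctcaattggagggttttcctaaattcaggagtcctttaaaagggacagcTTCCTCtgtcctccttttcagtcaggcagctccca
*C1qb*, chr4:136886201-136886450, minus strand: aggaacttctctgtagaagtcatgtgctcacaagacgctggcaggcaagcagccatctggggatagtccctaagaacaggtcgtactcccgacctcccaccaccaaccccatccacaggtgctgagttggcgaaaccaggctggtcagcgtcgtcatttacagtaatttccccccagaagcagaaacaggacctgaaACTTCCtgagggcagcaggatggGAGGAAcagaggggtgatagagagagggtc

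The promoter of *Pld4*, which had the largest fold change of the members, held none of these letters. *Ccl9* held GGAAGT 7 bases before its start site, on the opposite strand. *Mrc1* held GAGGAA at 3 places and GGAAGT at 1, and *C1qb* held each once. Among the 8 member promoters, 4 held GAGGAA (*Clec12a*, *C1qb*, *Mrc1* and *Cd68*) and 3 held GGAAGT (*Ccl9*, *C1qb* and *Mrc1*), against 23.3% and 19.7% of all 32841 promoters in the table over the same length. Neither was found in *Mpeg1*, *Pld4* or *Cx3cr1*, so both types had promoters with and without these letters. The joined letters GAGGAAGT were in 0 of the 8 and in 2.44% of all promoters. TTGCNNAA, letters bound by C/EBP factors, were found in 2 of the 8 (*Clec12a* and *Cd68*) and in 9.57% of all promoters, and TGANTCA, letters bound by AP-1, in 3 of the 8 (*Ccl9*, *Clec12a* and *Cd68*) and in 6.75%. A match of letters is a description of the sequence and says nothing on binding in these cells.

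Each of the 10 members had a mean that was lower in hnRNP L deficient than in wt cells, as was the case for 52.5% of the 14396 genes tested. In 8 of the 10, every hnRNP L deficient library lay below every wt library, which was the case for 22.7% of all genes tested. In edgeR's quasi-likelihood test with Benjamini-Hochberg adjustment over all genes tested, 4 members fell at an adjusted p-value under 0.05, 2 of the progenitor type (*Ccl9* and *Pld4*) and 2 of the macrophage type (*C1qa* and *Mrc1*). Of all genes tested, 9.85% fell at this threshold. An unadjusted p-value under 0.05 with a lower mean was found for 8 members and for 20.1% of all genes tested. The median log2 fold change was -3.43 for the progenitor-type and -1.56 for the macrophage-type members, compared to -0.03 for all genes tested. A two-sided exact permutation test for each member, on log2 of CPM plus 0.1, gave p = 0.1 for the 8 members without overlap, the smallest that 3 libraries against 3 allow.

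*Ccl9* (ENSMUSG00000019122, chromosome 11 of GRCm38 from 83572919 to 83578636) encodes a chemokine that acts on CCR1 and is secreted by myeloid cells. It had 8.97, 59.1 and 22.6 CPM in wt against 1.55, 2.89 and 2.42 CPM in hnRNP L deficient embryos. The lowest wt library was 3.1 times the highest hnRNP L deficient library, so the genotypes were well separated although the wt embryos differed by 6.59 times. This was a log2 fold change of -3.72 ± 0.75 (standard error, with edgeR adjusted p = 0.0283). *Pld4* (ENSMUSG00000052160, chromosome 12 from 112760655 to 112768990) encodes an endolysosomal exonuclease of the phospholipase D family that degrades single-stranded DNA and RNA. It had 3.96, 18.4 and 6.4 CPM in wt against 0.0932, 0.826 and 1 CPM in hnRNP L deficient embryos. The value of hnRNP L deficient replicate 1 rested on 6 reads, the fewest for this gene, against 220 reads in the lowest wt library. The log2 fold change of -3.89 ± 0.97 (standard error, with edgeR adjusted p = 0.0416) was the largest of the 10 members, and only 0.125% of all genes tested had a lower one.

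*Mpeg1* (ENSMUSG00000046805, chromosome 19 from 12460779 to 12465283) encodes perforin-2, a pore-forming protein that kills engulfed bacteria. It had 4.19, 38.1 and 11.9 CPM in wt against 0.73, 2.66 and 2.76 CPM in hnRNP L deficient embryos. No library of one genotype crossed into the range of the other, yet the log2 fold change of -3.14 (standard error 0.96) had an edgeR adjusted p of 0.0723. *Clec12a* (ENSMUSG00000053063, chromosome 6 from 129342691 to 129365303) encodes an inhibitory C-type lectin receptor that recognises uric acid crystals from dead cells. It had 4.72, 164 and 17.3 CPM in wt against 1.65, 12.3 and 12.5 CPM in hnRNP L deficient embryos. Here the genotypes overlapped, since 2 of the 3 hnRNP L deficient libraries exceeded wt replicate 1. The log2 fold change of -2.81 had a standard error of 1.56 (edgeR adjusted p = 0.256), and the exact two-sided permutation test gave p = 0.4. *Mpeg1* and *Clec12a* are also in a list of lowered genes that the study selected from these same libraries, so their lower means are not independent of that choice.

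**Figure D1:**
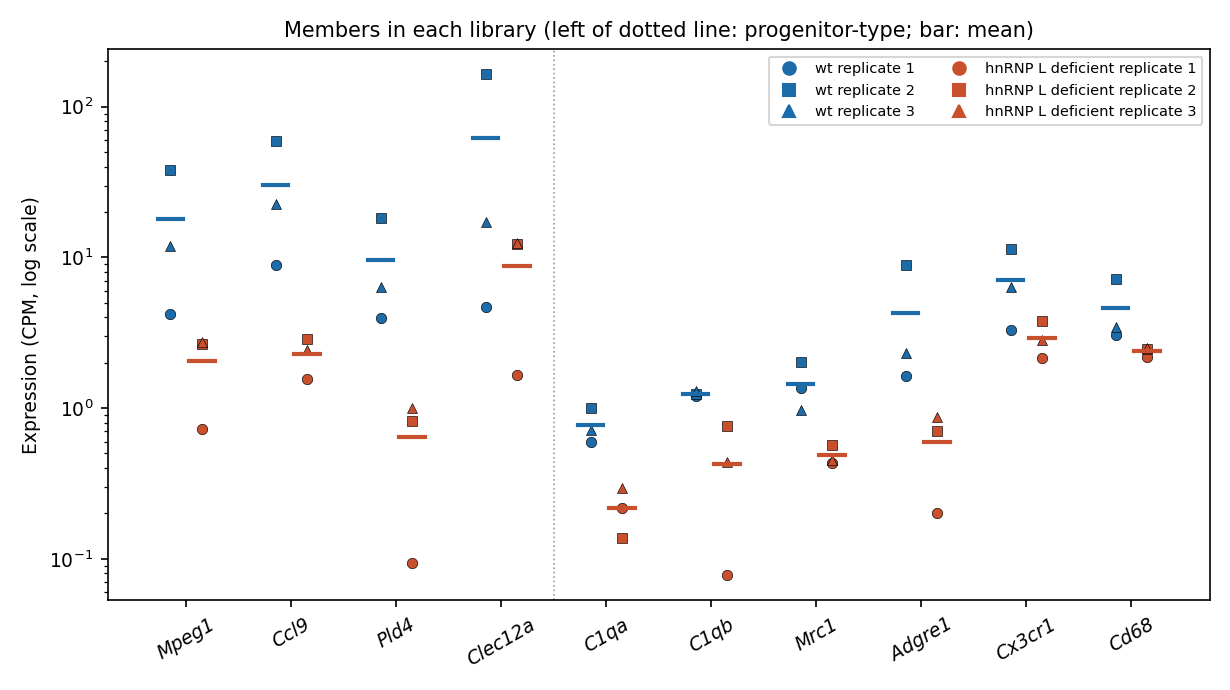
Expression of the 10 members in CPM on a log axis, with a point for each library and a bar for the mean of the 3 libraries of a genotype. Wt replicate 2 (blue squares) is the highest library for 9 of the 10 members, and the wt points of *C1qb* lie on top of each other.

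Among the macrophage-type members, the complement genes had few reads. *C1qa* (ENSMUSG00000036887, chromosome 4 from 136895917 to 136898803) and *C1qb* (ENSMUSG00000036905, chromosome 4 from 136880129 to 136886187) encode chains of C1q, which opens the classical complement pathway and tags dying cells for uptake. *C1qa* had 33, 60 and 52 reads in wt against 14, 9 and 22 reads in hnRNP L deficient embryos. In CPM these were 0.594, 1 and 0.716 against 0.217, 0.138 and 0.295, without overlap. *C1qa* fell by 1.82 on the log2 scale (standard error 0.43, edgeR adjusted p = 0.0315). *C1qb* had 67, 74 and 94 reads in wt against 5, 50 and 33 reads in hnRNP L deficient embryos. Its wt values of 1.21, 1.23 and 1.29 CPM were the most even of all members, while the hnRNP L deficient values of 0.0777, 0.765 and 0.442 CPM spread over 9.85 times. For *C1qb* the log2 fold change came to -1.53 (standard error 0.67, edgeR adjusted p = 0.14). The third chain, *C1qc*, is not a member but completes the protein, and it had 1.01, 0.951 and 1.21 CPM in wt against 0.249, 0.214 and 0.281 CPM in hnRNP L deficient embryos. *C1qc* fell by 2.08 on the log2 scale (edgeR adjusted p = 0.0146).

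*Mrc1* (ENSMUSG00000026712, chromosome 2 from 14229392 to 14332057) encodes the mannose receptor CD206, an endocytic receptor that is also found on liver sinusoidal endothelium. It had 1.37, 2.02 and 0.977 CPM in wt against 0.435, 0.566 and 0.455 CPM in hnRNP L deficient embryos. *Mrc1* fell by 1.58 on the log2 scale (standard error 0.36, edgeR adjusted p = 0.0288), the most precise estimate of the members called. Of 8 endothelial markers, 7 were tested and 2 fell, *Pecam1* and *Emcn*, compared to 9.85% of all genes tested. The summed level of all 8 markers was 25.8 to 56.1 CPM in the wt and 12.3 to 14.7 CPM in hnRNP L deficient embryos. *Pecam1* was the largest part of this sum in every library. It had 13.5, 43.3 and 18.6 CPM in wt against 6.27, 5.6 and 6.1 CPM in hnRNP L deficient embryos. Like most members, *Pecam1* was highest in wt replicate 2. At an unadjusted edgeR p under 0.05, 5 of the 7 tested markers were lower, compared to 20.1% of all genes tested. *Stab2* had 1.04, 0.65 and 1.22 CPM in wt against 0.0777, 0.275 and 0.496 CPM in hnRNP L deficient embryos. Its log2 fold change was -1.77 (edgeR adjusted p = 0.0852). *Cdh5* and *Kdr* were also above 0 in every library. The part of endothelial RNA in the value of *Mrc1* was not tested. *Adgre1* (ENSMUSG00000004730, chromosome 17 from 57358691 to 57483527) encodes F4/80, the surface antigen by which mouse macrophages are identified. It had 1.64, 8.87 and 2.33 CPM in wt against 0.202, 0.704 and 0.871 CPM in hnRNP L deficient embryos. The wt and hnRNP L deficient libraries did not overlap, and the log2 fold change of -2.84 (standard error 0.81) had an edgeR adjusted p of 0.0529.

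*Cx3cr1* (ENSMUSG00000052336, chromosome 9 from 119901616 to 120069879) encodes the fractalkine receptor of monocytes and many tissue macrophages. It had 3.31, 11.5 and 6.37 CPM in wt against 2.14, 3.76 and 2.81 CPM in hnRNP L deficient embryos. Hence wt replicate 1 lay below hnRNP L deficient replicate 2, and *Cx3cr1* stood at a log2 fold change of -1.28 ± 0.45 (standard error, with edgeR adjusted p = 0.0851, exact two-sided permutation p = 0.2). *Cd68* (ENSMUSG00000018774, chromosome 11 from 69664213 to 69666153) encodes a glycoprotein of the lysosomal membrane in the LAMP family. It had 3.06, 7.24 and 3.47 CPM in wt against 2.17, 2.48 and 2.52 CPM in hnRNP L deficient embryos. The genotypes were separated by a narrow gap, with the lowest wt library at 1.22 times the highest hnRNP L deficient library. Its log2 fold change of -0.94 ± 0.35 (standard error, with edgeR adjusted p = 0.0978) was the smallest of the members.

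The spread among wt embryos differed between the members. From wt replicate 1 to wt replicate 2 the level changed by 34.8 times for *Clec12a*, 9.08 times for *Mpeg1*, 6.59 times for *Ccl9* and 5.41 times for *Adgre1*, but by 1.68 times for *C1qa*, 1.47 times for *Mrc1* and 1.02 times for *C1qb*. Of all genes tested, 3.1% were over 5 times higher in wt replicate 2 than in wt replicate 1, compared to 4 of the 10 members. Wt replicate 2 was the highest of the 6 libraries for 9 members, *C1qb* being the exception, and for 31.7% of all genes tested. The square root of the edgeR dispersion, the variation between embryos beyond counting error, ran from 0.339 for *Mrc1* to 1.11 for *Clec12a*, against a median of 0.192 over all genes tested. At the low end, hnRNP L deficient replicate 1 was the lowest library for 9 members, *C1qa* being the exception, and for 19.7% of all genes tested.

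Without wt replicate 2, each of the 10 members again had its lower mean in the hnRNP L deficient group, and 3 fell at an edgeR adjusted p under 0.05 (*Ccl9*, *Pld4* and *Mrc1*), compared to 12.7% of the genes tested in this fit. Without it the log2 fold change was -2.79 for *Ccl9*, -3.0 for *Pld4* and -1.27 for *Mrc1*, with edgeR adjusted p-values of 0.00833, 0.0324 and 0.0387. The fall of *C1qa* moved to 1.58 and that of *C1qb* stayed at 1.54 on the log2 scale, with edgeR adjusted p-values of 0.0529 and 0.154. *Clec12a* changed most, from -2.81 to -0.32 (edgeR adjusted p = 0.865). *Mpeg1*, *Adgre1*, *Cx3cr1* and *Cd68* had log2 fold changes of -1.97, -1.74, -0.74 and -0.45 in this fit, each more than 1.5 times closer to 0 on the log2 scale than with all libraries.

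The number of members called moved with the fit more than their direction did. DESeq2 called 8 members (13.9% of the genes it tested fell), all but *Clec12a* and *C1qb*, and limma-voom called 7 (19.1%). Without a filter on low counts 2 were called, *C1qa* and *Mrc1* (5.71%), and with CPM of at least 1 in 3 libraries 3 of the 9 members left (12.1%). Leaving out wt replicate 1 gave 8 members (16.8%). Leaving out wt replicate 3 or hnRNP L deficient replicate 1, 2 or 3 gave 0 members at an edgeR adjusted p under 0.05, where 0%, 0.0135%, 0% and 0% of all genes tested fell. At an unadjusted p under 0.05 these 4 fits had 7, 7, 7 and 6 members lower, against 18.2%, 14.1%, 13.5% and 13.1% of all genes tested.

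**Figure D2:**
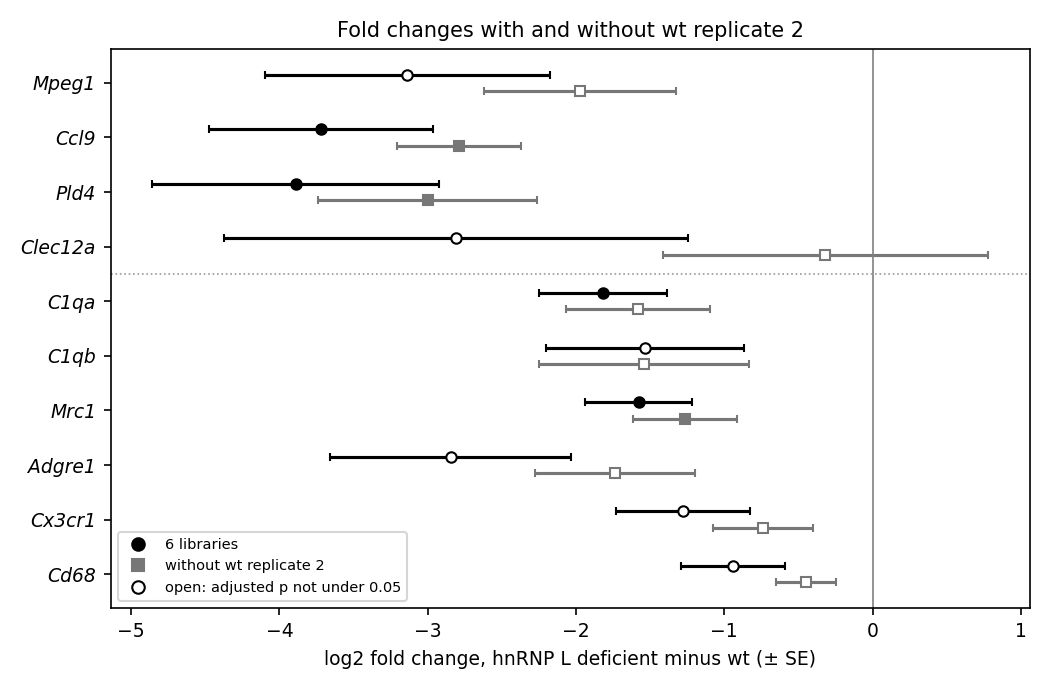
Log2 fold change of each member, hnRNP L deficient minus wt, with its standard error, from all 6 libraries (black circles) and without wt replicate 2 (grey squares). Filled symbols have an edgeR adjusted p under 0.05, and the estimate of *Clec12a* moves from -2.81 to -0.32 while that of *C1qb* stays at about -1.5.

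Progenitor-type and macrophage-type members were compared within each library on the RPKM scale, which divides CPM by the exonic length. The summed level of the progenitor-type members was 5.91, 63.2 and 15.2 RPKM in wt replicates 1 to 3 and 1, 4.03 and 3.99 RPKM in hnRNP L deficient replicates 1 to 3. For the macrophage-type members the sums were 5.57, 13.5 and 6.92 RPKM in the wt and 2.62, 3.95 and 3.66 RPKM in the hnRNP L deficient libraries. Both sums were lower in every hnRNP L deficient library than in every wt library. The ratio of the progenitor-type to the macrophage-type sum was 1.06, 4.7 and 2.19 in wt against 0.383, 1.02 and 1.09 in hnRNP L deficient embryos. These ratios overlapped, with hnRNP L deficient replicate 3 above wt replicate 1. The larger median fold change of the progenitor-type members was thus not accompanied by a separation of these ratios. *Clec12a* held 14.4%, 47% and 20.6% of the progenitor-type RPKM in wt and 29.7%, 55.3% and 56.8% in hnRNP L deficient embryos. Ratios without *Clec12a* were not computed, so the overlap is shown only for sums that include it. No test was made on the sums, since the members were chosen with results known.

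**Figure D3:**
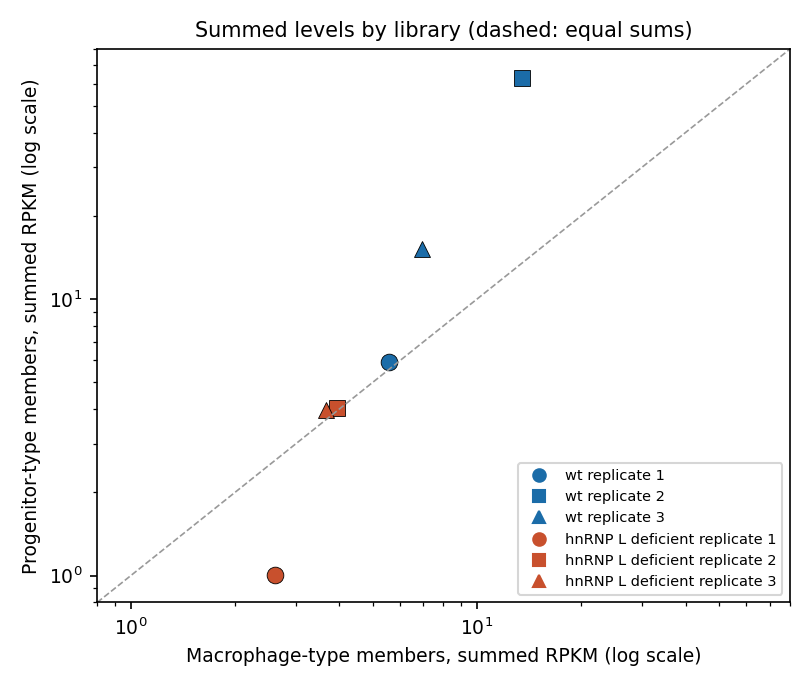
Summed RPKM of the 4 progenitor-type members against that of the 6 macrophage-type members in each library, both on log axes, with a dashed line where the sums are equal. Wt replicates 2 and 3 lie above the line, hnRNP L deficient replicate 1 below it, and the other 3 libraries close to it.

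In order of their mean level per length in wt cells, the members ran from *Clec12a* (11.2 ± 16 RPKM, SD, n = 3 embryos) over *Ccl9* (9.93 ± 8.51), *Mpeg1* (4.17 ± 4.1), *Cd68* (3.65 ± 1.83), *Pld4* (2.77 ± 2.23), *Cx3cr1* (1.56 ± 0.913), *Adgre1* (1.32 ± 1.23), *C1qb* (1.14 ± 0.0411) and *C1qa* (0.74 ± 0.201) to *Mrc1* (0.228 ± 0.0825). Neighbours from *Clec12a* to *C1qb* overlapped in their wt ranges. Compared within each wt library, *Ccl9* was always above *Mpeg1*, *Cd68* above *Pld4*, and *Pld4* above *Cx3cr1*. The order of the other neighbours down to *C1qb* changed between wt libraries. *Clec12a*, first by its mean, lay below *Ccl9* in wt replicates 1 and 3 (0.853 and 3.12 against 2.94 and 7.44 RPKM). *C1qb*, *C1qa* and *Mrc1* did not overlap with each other. *Clec12a* alone held 47% of the progenitor-type RPKM in wt replicate 2 and 14.4% in wt replicate 1. *Clec12a* lay at the 66.5th percentile of the wt means of all genes tested and *Mrc1* at the 12.6th. Of the macrophage-type members, *Cd68* stood highest, at the 43.7th percentile. In hnRNP L deficient cells *Cd68* had the highest mean level per length (1.9 ± 0.15 RPKM), followed by *Clec12a* (1.6 ± 1.12), and *Mrc1* the lowest (0.0762 ± 0.0111).

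Wt replicate 1 and hnRNP L deficient replicate 1 share the first part of their embryo number, and no source used here says what this part stands for. Between this pair all 10 members were lower in the hnRNP L deficient library, compared to 52.2% of all genes tested. The difference was 42.5 times for *Pld4* and 15.5 times for *C1qb*, where the hnRNP L deficient library had 6 and 5 reads, 5.77 times for *Ccl9* and 5.75 times for *Mpeg1*. It was 2.87 times for *Clec12a*, 1.55 times for *Cx3cr1* and 1.41 times for *Cd68*. A pair of libraries has no replicate, and these values compare the libraries only.

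Related genes were read by lists. Of 16 monocyte lineage genes, 15 were tested, and 7 fell and 0 rose at an edgeR adjusted p under 0.05, compared to 9.85% of all genes tested that fell and 9.32% that rose. Their median log2 fold change was -3.02. Wt replicate 2 was the highest library for 14 of the 15, compared to 31.7% of all genes tested. In 12 of the 15, every hnRNP L deficient library lay below every wt library, compared to 22.7%. *Lyz2* overlapped, with 16.2, 168 and 36.6 CPM in wt against 4.85, 38.1 and 45.5 CPM in hnRNP L deficient embryos. It was not called (edgeR adjusted p = 0.47). *Csf1r*, *Irf8* and *Ccr2*, which encode the M-CSF receptor, a transcription factor of the monocyte lineage and the receptor for CCL2, had log2 fold changes of -3.24, -3.02 and -3.01 (edgeR adjusted p between 0.0343 and 0.047). Of 25 tissue macrophage genes, 19 were tested and 2 fell, *C1qc* and *Mertk*, a receptor for the uptake of dying cells, which fell by 2.52 on the log2 scale. Their median was -1.18, and 17 did not pass the test. The count that fell was thus near the 9.85% of all genes tested. A lower mean was found for 16 of the 19, compared to 52.5% of all genes tested. At an unadjusted edgeR p under 0.05, 7 were lower, compared to 20.1%. For 7, every hnRNP L deficient library lay below every wt library, compared to 22.7%. *Slc40a1*, the iron exporter ferroportin, and *Dnase2a*, the nuclease for engulfed nuclei, are also expressed by erythroid cells and had log2 fold changes of 0.05 and 0.08 (edgeR adjusted p = 0.765 and 0.858). *Cd163*, a defining macrophage scavenger receptor, had 0 reads in all 6 libraries, which allows up to 0.054 CPM, and *Vsig4*, a marker of Kupffer cells, had 1 read in all. The 14 granulocyte precursor markers, of which *Ly6g* was not tested, 0 were called by edgeR and 1 had an unadjusted p-value under 0.05, did not all share a pattern. Like 9 of the 10 members of both types, 10 of the 13 tested were highest in wt replicate 2, compared to 31.7% of all genes tested. The other 3, the granule genes *Ngp*, *Ltf* and *Lcn2*, were highest in hnRNP L deficient replicates 2 and 3, with log2 fold changes of 2.21, 2.49 and 1.49 (edgeR adjusted p = 0.362, 0.273 and 0.522). *Ly6g* had 0 reads in 5 libraries. The part of granulocyte precursors in the levels of the progenitor-type members was not tested.

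For the ligand and receptor of 2 members, the partners could be read as well. *Ccr1*, the receptor of CCL9, had 1.75, 11.8 and 2.08 CPM in wt against 0.404, 1.32 and 1.74 CPM in hnRNP L deficient embryos. Its log2 fold change was -2.17 (edgeR adjusted p = 0.139). *Cx3cl1*, which encodes fractalkine, the ligand of CX3CR1, fell by 2.21 on the log2 scale from a mean of 0.532 to 0.114 CPM (edgeR adjusted p = 0.0452). Of 13 chemokines and receptors, 6 were tested and 4 fell, among them *Ccr2*, *Cx3cl1* and *Ccl4*, compared to 9.85% of all genes tested. *Ccl4* had 0.252, 0.267 and 0.317 CPM in wt against 0.0311, 0.0153 and 0.0402 CPM in hnRNP L deficient embryos. The hnRNP L deficient values of *Ccl4* were at or below the level of 3 reads, so the size of its fall rests on few reads. *Cx3cl1* was also low in these libraries, at 0.202, 0.0612 and 0.0804 CPM. *Ccl6*, a related chemokine gene, stood at a log2 fold change of -1.48 without passing the test (edgeR adjusted p = 0.271), and *Ccl7* and *Ccl8* had 0 reads in all libraries. Of the 5 relatives of *Pld4*, 4 were tested and only *Pld1* fell, by 1.76 on the log2 scale (edgeR adjusted p = 0.0311). *Pld3*, which encodes the other endolysosomal exonuclease of the family, stood at a log2 fold change of -0.24 without passing the test (edgeR adjusted p = 0.417).

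Exon usage, the share of a gene's reads on each exon bin, was compared in the 5 libraries with bin counts, namely all 3 wt embryos with hnRNP L deficient embryos 2 and 3. The members have 112 bins in the deposited counts, each in a unit of its own gene, and 67 bins of 8 members had a mean of at least 10 reads and more than a single such bin in the gene. In edgeR's diffSpliceDGE test, 0 of these bins had an adjusted p-value under 0.05, compared to 0.0288% of the 176996 bins tested, and 0 had an unadjusted p-value under 0.05, compared to 1.02%. With limma's diffSplice, 0 member bins passed at either level, compared to 2.68% of all bins at an unadjusted and 0.124% at an adjusted p under 0.05. *Clec12a* had the deepest bins, with a median of 333 reads, and its log2 changes in usage lay between -0.14 and 1.05. The bin with 1.05 held 8, 140 and 33 reads in the wt and 29 and 25 reads in the hnRNP L deficient libraries. For *Ccl9* the changes lay between -0.13 and 0.21, and for *Pld4*, with a median of 55.4 reads, between -0.82 and 0.61. *Cd68* had 10 tested bins with changes between -0.38 and 0.67. *Cx3cr1* had the largest change of the members, -1.55 in bin 4 (unadjusted p = 0.257), which held 4, 34 and 37 reads in the wt and 5 and 3 reads in the hnRNP L deficient libraries. The bins of *Adgre1* held a median of 15.3 reads, and its 22 tested bins ranged from -0.997 to 0.79. The lack of calls does not show that usage was the same, and the size of change that could have been detected was not estimated.

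Reads on the members were spread along the genes in both genotypes. *Mrc1* had reads on 22, 28 and 19 of its 32 bins in the wt libraries and on 22 and 24 bins in hnRNP L deficient replicates 2 and 3, although only 1 of them reached a mean of 10 reads, so that usage was not tested for *Mrc1*. For *Adgre1* 21, 24 and 26 of 26 bins had a read in wt replicates 1, 3 and 2, and 24 in both hnRNP L deficient libraries. *Pld4* had reads on all 11 bins in each of the 5 libraries. *Mpeg1*, whose coding sequence lies in a single exon, carried nearly all reads on 1 of its 2 bins and was not tested for usage.

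**Figure D4:**
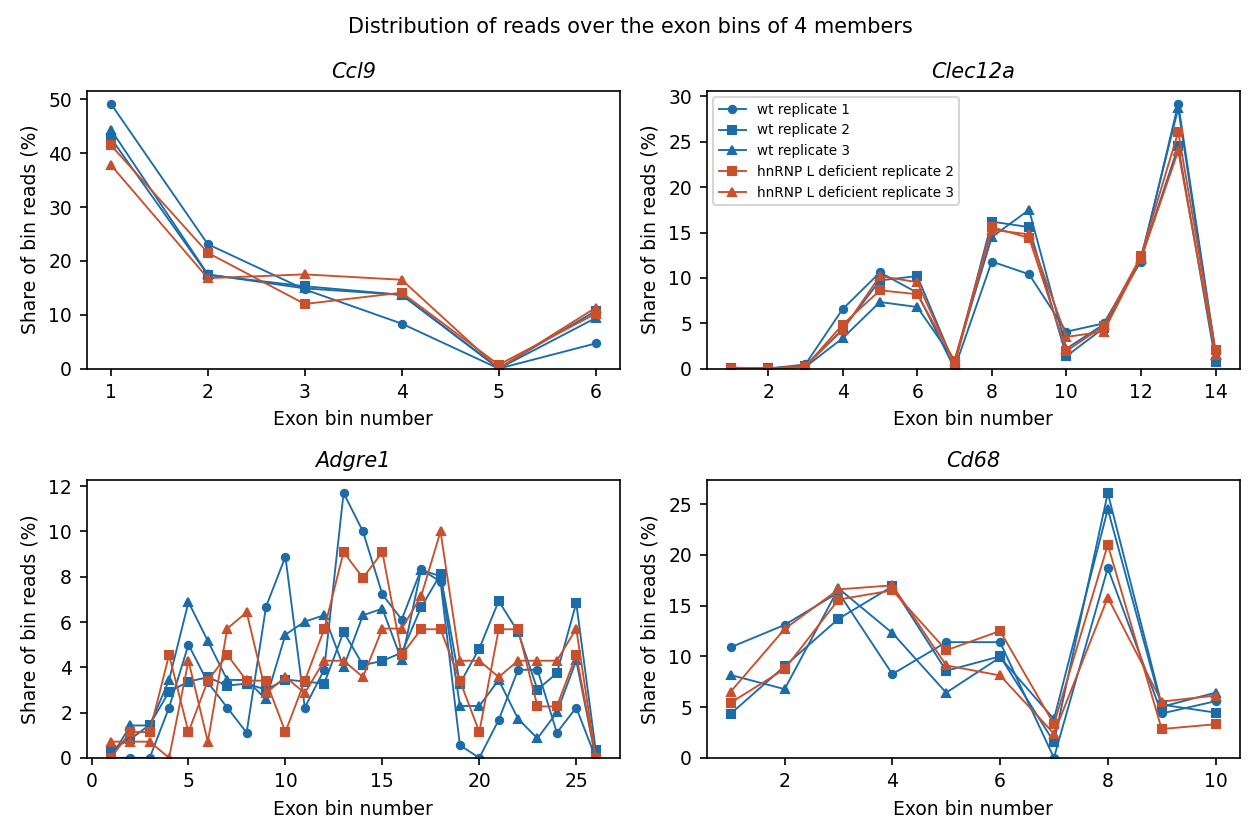
Share of the reads on exon bins that fell on each bin, in percent, for *Ccl9*, *Clec12a*, *Adgre1* and *Cd68*, with a line for each of the 3 wt (blue) and 2 hnRNP L deficient libraries (red). The lines of the genotypes interleave, closely for the deeply covered *Clec12a* and loosely for *Adgre1*, whose bins hold a median of 15.3 reads.

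The genes with the pattern most like that of the members were taken by Pearson's r of log2 CPM with the mean profile of each type over the 6 libraries, among 11612 other genes with a mean of at least 1 CPM. For the progenitor-type profile these were *Hpse* (r = 0.999), *Cd300a*, *Reep5*, *Lpcat2* and *Cxcr2* (each r = 0.997), with log2 fold changes from -2.64 to -0.73. For the macrophage-type profile they were *Filip1l* (r = 0.998), *Fgd2* and *Trps1* (each r = 0.997), *Sgk3* and *Traf3ip3* (each r = 0.996), with log2 fold changes from -3.07 to -1.31. With 6 points that share libraries and depth, and so many genes to choose from, such values describe these libraries only. Among the members themselves, r had a median of 0.94 over the 6 pairs of progenitor-type members, 0.84 over the 15 pairs of macrophage-type members and 0.90 over the 24 pairs between the types. The median between the types was thus above that among the macrophage-type members, and r did not set the types apart.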

How the data were processed

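RNA of sorted Lin-cKit+ FL cells from 6 embryos at E14.5 was sequenced by the authors as stranded paired-end mRNA libraries. After alignment to GRCm38 with TopHat2 2.0.10, reads were assigned by the authors to Ensembl genes (HTSeq) and to exon bins (the script that DEXSeq supplies). The deposited values are whole-number counts and were not normalized. The Ensembl release and the strand setting of the counting are not given in the sources used here. Genotypes were taken from the sample labels, and replicates numbered in accession order. For hnRNP L deficient replicate 1, exon bins were not used here.

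Symbols (94.9% of 38293 genes matched), positions and exonic lengths are from GENCODE M21, and promoters from RefSeq. Between 46.7% and 53.3% of listed reads were on no gene and were left out. Gene counts were normalized by TMM, filtered by edgeR's default (14396 genes kept, all 10 members among them) and tested with edgeR 4.0.16 in R 4.3.3 (quasi-likelihood, robust, genotype only, Benjamini-Hochberg over all genes). The standard error was taken as the absolute log2 fold change over the root of F. CPM and RPKM use the TMM library size. The diffSpliceDGE test took bins whose mean reached 10 reads. The steps were tested on simulated data. The depth per library was at least 55952160 reads on genes, and counting floors cover counting error only. For most members the spread between 3 embryos limited the precision.

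The members and lists were chosen with earlier results of these data known. Named are the members, up to 4 genes of each list by mean CPM among those called, the 5 genes most like each profile, and *Hnrnpl*. Some genes that this rule selects are not reported here. Other genes named were chosen after their values were seen. Alternatives were DESeq2 1.42.0, other size factors and filters, limma-voom 3.58.1 with sample weights, no robust estimation, another pseudocount, other bin tests and read minimums, and leaving out each library.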

Additional observations from a re-analysis of the deposited data

How the results depend on the processing

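Across 129 refitted fold changes of single members, all were lower in hnRNP L deficient cells, 99 kept their side of the threshold, 11 passed it only under the alternative and 19 only in the reported fit. Over all genes, 1418 were lower and 1341 higher, and 4 members were called. DESeq2 called 2213 genes lower (13.9% of those tested) and 8 members. Limma-voom with sample weights called 2751 genes lower, 2537 higher and 7 members, and 2 members were called without a filter on low counts, where *Ccl9* and *Pld4* had edgeR adjusted p-values of 0.0614 and 0.0881. With 1 library left out in turn, between 0 and 2479 genes were lower, between 5 and 2312 higher, and between 0 and 8 members were called. The count was 8 without wt replicate 1 and 3 without wt replicate 2. It was 0 without wt replicate 3 or any hnRNP L deficient library, where at most 2 genes were called lower over the whole table. In these 4 fits between 6 and 7 members had an unadjusted p-value under 0.05. At CPM of at least 1 in 3 libraries *C1qa* was not tested and 3 members were called. The pseudocount changed 0 of 10 permutation p-values, and 0 member bins were called under any setting for exon bins. No paired analysis was made. Only wt replicate 1 and hnRNP L deficient replicate 1 share the first part of an embryo number, and its meaning is not given. Low reads limit *C1qa*, *C1qb* and *Mrc1*.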

Other observations

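Other lists around the members gave the following values, where 9.85% of all genes tested fell. Of 15 C-type lectin receptors, 11 were tested and 2 fell, *Clec2d* and *Clec4e*, with log2 fold changes of -1.48 and -1.61 (edgeR adjusted p = 0.0371 and 0.0218). *Clec7a*, which encodes the fungal receptor dectin-1, stood at -3.95 on the log2 scale (edgeR adjusted p = 0.0511), with 1.69, 19.5 and 6.12 CPM in wt against 0.171, 0.903 and 0.683 CPM in hnRNP L deficient embryos. *Clec4a2* followed wt replicate 2 as *Clec12a* did, with 0.18, 16.2 and 0.867 CPM in wt against 0.124, 1.64 and 1.75 CPM in hnRNP L deficient embryos. Of 11 complement genes, 8 were tested and 3 fell, *Cd93*, *C1qc* and *Itgax*. *Itgam*, which encodes CD11b, had 6.05, 47.4 and 9.61 CPM in wt against 2.24, 10.1 and 10.7 CPM in hnRNP L deficient embryos (log2 fold change -1.45, edgeR adjusted p = 0.336).

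All 19 lysosomal genes were tested, and 1 fell, compared to 9.85% of all genes tested. This was *Scarb2*, which fell by 0.40 on the log2 scale (edgeR adjusted p = 0.0308). Their median log2 fold change was -0.32, and *Lamp1*, a relative of *Cd68*, had 294, 349 and 289 CPM in wt against 337, 330 and 320 CPM in hnRNP L deficient embryos.

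Markers of other cells had these counts, where 9.85% of all genes tested fell. Of 6 progenitor markers 4 fell, *Kit*, *Cd34*, *Flt3* and *Hlf*. Of 9 dendritic cell markers 5 were tested and 2 fell, *Flt3* and *Itgax*, while *Xcr1* had 1 read in all libraries. All 7 hepatocyte markers were tested and 1 fell, *Ttr*, with summed levels of 110 to 234 CPM in the wt and 24.5 to 73.5 CPM in the hnRNP L deficient libraries. For all 7, every hnRNP L deficient library lay below every wt library, compared to 22.7% of all genes tested. An unadjusted edgeR p-value under 0.05 with a lower mean was found for 5 of them, compared to 20.1%. Their median log2 fold change was -1.6. None of 5 megakaryocyte markers was called by edgeR (0 of 5), with 1 at an unadjusted p-value under 0.05.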
